A study of Homo sapiens with 6 samples.

Results

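The genes described here encode the cap-binding translation initiation complex eIF4F, its cofactors and the 3 paralogs of its helicase eIF4A. They are EIF4A1, EIF4A2, EIF4A3, EIF4G1, EIF4G2, EIF4G3, EIF4H, EIF4B, EIF4E and EIF4EBP1, chosen by symbol and not by their values. Of these 10 genes, 9 were listed among the 8121 genes with a translational efficiency. EIF4G2 was not listed in either table and is not analysed here. In the table of ribosome occupancy per codon, which holds 9570 transcripts, 4 of the 10 were listed, namely EIF4A2, EIF4A3, EIF4G1 and EIF4EBP1.

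The measurements come from ribosome profiling of HEK293 cells, an established human embryonic kidney line. Ribosome profiling sequences ribosome-protected fragments (RPFs), the short stretches of mRNA that a ribosome shields from nuclease. All cells were of 1 condition, given in the sample labels as control siRNA, with 3 RPF libraries and 3 total RNA libraries that share a replicate number. The lysis buffer held cycloheximide, which stalls ribosomes on the mRNA, at 100 µg/ml. According to the study's methods, the living cells were also treated with cycloheximide before they were washed and lysed. Whether this treatment changed the start codon, 5′UTR or single-codon footprints described below was not tested, as no cells without it were compared. No sample with a knockdown or a further treatment was compared either, so every comparison below is between genes or between positions on an mRNA. Of genes that HEK293 cells are known to use, 4 of 4 checked (VIM, LIN28B, SOX11 and NEFL) were listed in both tables, and 0 of 5 blood, liver and skin markers were in either.

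In eIF4F, eIF4E binds the mRNA cap, eIF4G is the scaffold and eIF4A is the DEAD-box RNA helicase that opens structure in the 5′UTR. eIF4B and eIF4H stimulate the helicase, and the 4E-binding protein made from EIF4EBP1 competes with eIF4G for eIF4E. eIF4A1 is the main eIF4A of the cytoplasm, eIF4A2 is its close relative and also a partner of the Ccr4-Not deadenylase complex, and eIF4A3 is a core protein of the exon junction complex. eIF4G3 is a second scaffold of the eIF4G1 type.

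The start codons are shown first, because initiation is the step most of these proteins act on and because the footprints at the start codon differed between mRNAs. Each line gives the last 9 bases of the 5′UTR, the start codon in capitals and the codon after it, with sequence and coordinates from GENCODE 44 on GRCh37 (hg19).
EIF4A1: ctaaggatcATGtct
EIF4A2: tttcggatcATGtct
EIF4A3: ctctgaatcATGgcg
EIF4E: cgatctaagATGgcg
EIF4H: agacggcaaATGgcg
EIF4B: tctcccaacATGgcg
EIF4G3: cctcagacaATGaat
EIF4G1: tcccaagtaATGatg
The EIF4A1 start codon lies at chr17:7476160-7476162 on the plus strand, that of EIF4A2 at chr3:186501400-186501402 on the plus strand and that of EIF4A3 at chr17:78120758-78120760 on the minus strand, each in exon 1. That of EIF4G1 lies at chr3:184035223-184035225 on the plus strand, in exon 2 of the transcript matched here. The coding sequence (CDS) of EIF4G1 opens with 2 AUG codons in a row in that transcript.

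Translational efficiency, which sets the RPFs of a gene against its total RNA in each replicate, had a median of 0.383 over all genes and replicates. Of the 9 genes measured, 6 lay above that median and 3 below it by limma at an FDR of 0.05, and none was left uncalled. Over all genes, 44.7% were called above and 44.6% below, so a call by itself sets a gene apart very little, and the levels are what differ. They spanned from 0.0742 for EIF4G1 to 7.25 for EIF4E.

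The cap-binding protein gene EIF4E had the highest value of the set. Its translational efficiency was 7.61, 7.01 and 7.14 in replicates 1 to 3, or 7.25 ± 0.315 (SD, n = 3). All 3 values lay far above the median gene, by 4.21 on the log2 scale (adjusted p = 1.01e-06, limma), and at the 98.5 percentile of all genes. Its repressor gene EIF4EBP1 had 0.560, 0.723 and 0.581, or 0.621 ± 0.0886 (SD, n = 3), which was 0.67 above the median gene on the log2 scale (adjusted p = 0.000963, limma). Replicate 2 stood above the other two here, and this was the widest relative spread of the 9 genes.

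The helicase cofactors EIF4H and EIF4B, whose proteins both stimulate eIF4A, were far apart. EIF4H had a translational efficiency of 3.38, 3.31 and 3.28 (mean 3.33 ± 0.0532, SD, n = 3), at the 96.0 percentile. EIF4B had 0.569, 0.520 and 0.536 (mean 0.541 ± 0.0252, SD, n = 3), at the 62.5 percentile. EIF4H was thus 6.14-fold higher, and EIF4B minus EIF4H was -2.60 ± 0.0479 on the log2 scale (SD, n = 3), with no overlap.

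The 3 eIF4A paralogs encode proteins of nearly the same length, 406, 407 and 411 residues, and gave 3 separate levels of translational efficiency. EIF4A3 was highest, with 2.70, 2.64 and 2.50 (mean 2.62 ± 0.101, SD, n = 3) and 2.74 above the median gene on the log2 scale (adjusted p = 1.57e-06, limma). EIF4A1 came next, with 0.730, 0.751 and 0.758 (mean 0.746 ± 0.0146, SD, n = 3) and 0.94 above the median gene (adjusted p = 2.42e-05, limma). EIF4A2 was the one paralog below the median, with 0.217, 0.253 and 0.254 (mean 0.241 ± 0.0212, SD, n = 3) and a log2 difference of -0.65 from the median gene (adjusted p = 0.000365, limma). Between EIF4A1 and EIF4A2, whose proteins are 90.1% identical over 406 aligned residues, the efficiency of EIF4A1 was 3.09-fold higher, or 1.59 ± 0.0978 on the log2 scale (SD of the within-replicate differences, n = 3). EIF4A3, which is 67.7% identical to eIF4A2, was 10.8-fold above EIF4A2 and 3.51-fold above EIF4A1. Each of these 3 differences had the same sign in 3 of 3 replicates.

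The scaffold genes had the lowest values. EIF4G1 had a translational efficiency of 0.0724, 0.0767 and 0.0734 (mean 0.0742 ± 0.00226, SD, n = 3), a log2 difference of -2.22 from the median gene (adjusted p = 2.1e-06, limma). It stood at the 3.48 percentile of all genes. EIF4G3 had 0.185, 0.169 and 0.181 (mean 0.178 ± 0.00833, SD, n = 3), at the 21.5 percentile, and was 2.41-fold above EIF4G1. The proteins of EIF4G1 and EIF4G3 share 56.0% of 1427 aligned residues.

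For the 5 pairs compared (the 3 eIF4A pairs, EIF4G1 with EIF4G3, and EIF4B with EIF4H), the values of the 2 genes did not overlap in any pair. The exact sign-flip permutation test, two-sided, gave p = 0.25 for each pair (0.25 after adjustment over the 5 pairs), the smallest value that 3 pairs of values can give, so no pair can pass a threshold of 0.05 by this test. In the order of the 9 levels, EIF4EBP1 and EIF4B were the only neighbours whose replicate ranges overlapped. The plot of translational efficiency by gene shows this order and the spread of the replicates.

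**Figure D1:**
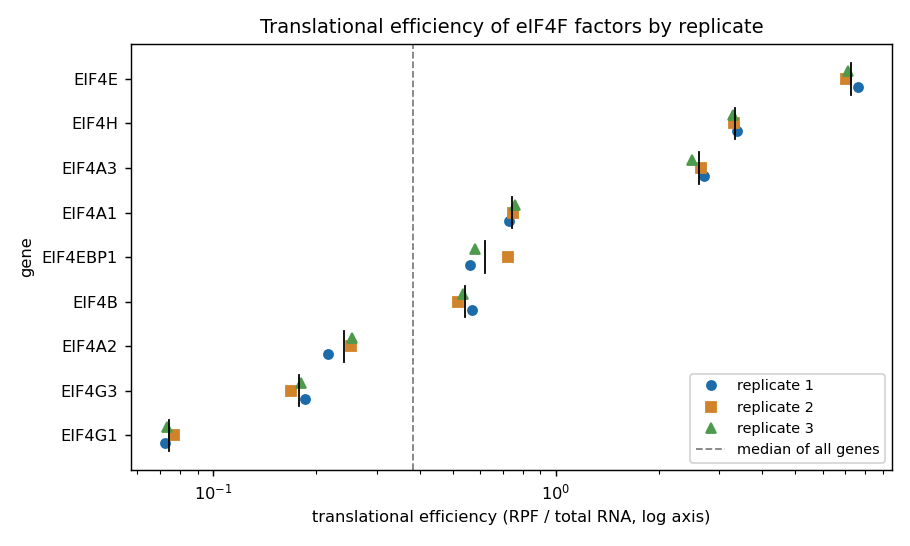
Translational efficiency (RPF over total RNA, log axis) of the 9 listed eIF4F genes, 1 row per gene, with 1 marker per replicate, a vertical bar at the mean of 3 replicates and a dashed line at the median of all genes (0.383). EIF4E, EIF4H and EIF4A3 sit together above 2.5, EIF4A1, EIF4EBP1 and EIF4B lie between 0.520 and 0.758, and EIF4A2, EIF4G3 and EIF4G1 lie left of the median.

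CDS length differed along this order. EIF4E and EIF4H have short CDSs of 218 and 249 codons including the stop codon, while those of EIF4G1 and EIF4G3 have 1513 and 1642. EIF4EBP1, the shortest with 119 codons, was not among the highest, and EIF4A1, EIF4A2 and EIF4A3 have 407, 408 and 412 codons. Across 6912 genes in both tables, translational efficiency and CDS length had a Spearman coefficient of -0.26 as a description across genes, which are not independent replicates. Whether the authors' ratio takes length into account is not stated in the methods read here, and its part in the order was not tested.

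Many of these genes also have processed pseudogenes. Of the 30-base stretches of the CDS, 88.5% in EIF4E, 86.2% in EIF4B and 63.8% in EIF4H occur in a transcript of another gene, among them the pseudogenes EIF4EP2, EIF4BP6 and EIF4HP1. For EIF4A1 the share was 97.6% without the readthrough gene SENP3-EIF4A1, which spans it, and for EIF4A2 it was 28.4%. EIF4A3, EIF4G1, EIF4G3 and EIF4EBP1 shared 0%. Reads of the first 5 genes can be split or lost between copies in a way that differs between RPF and total RNA alignments. Their levels are therefore uncertain to a degree that was not tested. The same holds for the occupancy profile of EIF4A2 described below. The contrasts of EIF4A3 and EIF4G1 with the median gene do not involve shared stretches.

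Other genes of the pathway were taken from a list of 35, of which 30 had a translational efficiency. Of these 30, 18 lay above the median gene, 9 below it and 3 were not called, with a median of 0.520 against 0.385 for all genes (medians of the gene means). Among cap-binding proteins and partners of eIF4E, 5 of 8 were above and 2 below, from EIF4EBP2, a second 4E-binding protein (3.04 ± 0.193, SD, n = 3), to EIF4EBP3 of the same family (0.265 ± 0.0982, SD, n = 3). Of poly(A)-binding proteins and their partners, 4 of 5 were above, led by PAIP2B (2.79 ± 0.120, SD, n = 3), an inhibitor of poly(A)-binding protein, while PAIP1, which stimulates translation with eIF4A, had the lowest value of those that passed (0.526 ± 0.0146, SD, n = 3). 

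The proteins that act on eIF4A, eIF4B or eIF4E as helicases, inhibitors or kinases were mostly below the median, 6 of 8, with a group median of 0.140. The one above it was PDCD4, which binds and inhibits eIF4A (2.00 ± 0.0586, SD, n = 3), and the lowest was RPS6KB2, an S6 kinase gene (0.0549 ± 0.00723, SD, n = 3). The exon junction complex partners of eIF4A3 were all above the median, 5 of 5, from CASC3 (0.514 ± 0.0252, SD, n = 3) to MAGOH (4.74 ± 0.326, SD, n = 3), and EIF4A3 itself lay within their range. Of the Ccr4-Not genes and DDX6, 3 of 4 were above, with DDX6, a helicase that represses mRNAs (1.06 ± 0.0195, SD, n = 3), the highest. CNOT1, the scaffold of Ccr4-Not, was below (0.194 ± 0.00888, SD, n = 3), at the 24.3 percentile of all genes, where EIF4A2 at 0.241 was at the 32.0. These counts describe small lists beside a background of 44.7% above and 44.6% below, and no list was tested as a list. Stretches shared with other genes were not counted for the partner genes, so their part in these levels was not tested.

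**Figure D2:**
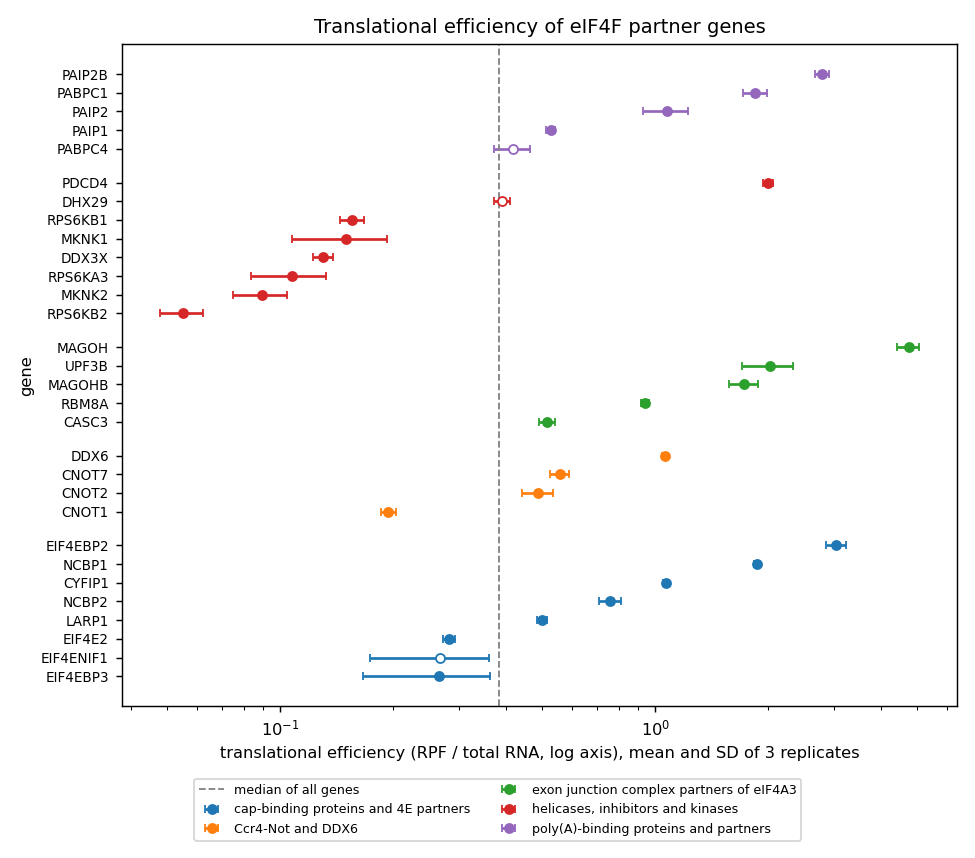
Translational efficiency (RPF over total RNA, log axis) of 30 listed partner genes in 5 groups, as the mean with the SD of 3 replicates. Filled markers passed the test against the median gene, the 3 open ones did not, and the dashed line is the median of all genes. The helicase, inhibitor and kinase group has 6 of 8 genes left of the line, and all 5 exon junction complex genes are right of it.

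The occupancy table gives RPFs per codon relative to mRNA abundance, for reads in the CDS frame only and with the replicates combined by the authors. For the 4 genes listed, each value above 0 could be written in 1 way only as whole reads of 3 sizes, the worth of a read in each of 3 read series. The series are taken here as the 3 replicates, without replicate numbers, and numbered within an mRNA by the worth of a read. The in-frame CDS reads recovered in this way were 13751 for EIF4A2, 24094 for EIF4A3, 86853 for EIF4G1 and 2641 for EIF4EBP1. Positions on the first 3 mRNAs rest on more reads than those on EIF4EBP1.

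Mean CDS occupancy, in units of the table per codon, was 0.110 for EIF4A3, 0.0455 for EIF4A2, 0.0365 for EIF4G1 and 0.0155 for EIF4EBP1. The SD over the 3 read series was 0.00291, 0.00377, 0.000987 and 0.0022 in the same order (n = 3). EIF4A3 was again above EIF4A2, by 2.42-fold here and by 10.8-fold in translational efficiency. Among all transcripts EIF4A3 stood at the 85.8 percentile, EIF4A2 at the 50.6, EIF4G1 at the 39.9 and EIF4EBP1 at the 12.7.

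The 2 tables placed EIF4EBP1 and EIF4G1 differently. Among the 6912 genes in both, EIF4EBP1 was at the 66.7 percentile of translational efficiency but at the 6.76 percentile of occupancy. EIF4G1 was at the 3.51 percentile of translational efficiency and at the 30.6 percentile of occupancy. EIF4A2 (31.7 and 42.2) and EIF4A3 (94.3 and 83.1) were closer, and over all 6912 genes the Spearman coefficient between the tables was 0.69, given as a description of values that share libraries.

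The worth of a read also gives the mRNA abundance by which the authors divided. By this measure EIF4G1 mRNA was 2.15-fold (2.08 to 2.29 over the read series) as abundant as EIF4A2 mRNA and 2.95-fold (2.90 to 3.05) as abundant as EIF4A3 mRNA. EIF4EBP1 mRNA was 1.96-fold (1.77 to 2.12) as abundant as EIF4A2 mRNA, and EIF4A2 mRNA 1.37-fold (1.33 to 1.40) as abundant as EIF4A3 mRNA. The ranges pair the series of 2 mRNAs in order of the worth of a read, which assumes the same replicate order in both. All 4 mRNAs were abundant, at the 91.1 to 97.9 percentile of the 9454 transcripts where this could be solved. EIF4A3, the least abundant of the 4, had the highest occupancy.

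Footprints were unevenly spread along each CDS, which was common in the table. By the share of occupancy in the highest codon, EIF4A2, EIF4A3 and EIF4G1 were at the 13.8, 19.9 and 8.13 percentile of all transcripts. They were thus more even than most by this measure, while EIF4EBP1 was at the 97.2 percentile. This share was not adjusted for CDS length or read depth. The median codon had an occupancy of 0.0153 in EIF4A2, 0.0311 in EIF4A3, 0.00747 in EIF4G1 and 0.00257 in EIF4EBP1, well under the means. In EIF4A2, 33 of 408 codons held 50% of the occupancy, and in EIF4A3 35 of 412. In EIF4G1 it was 96 of 1513 codons and in EIF4EBP1 8 of 119. The plot of the 4 CDS profiles shows the codons that carry these values.

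**Figure D3:**
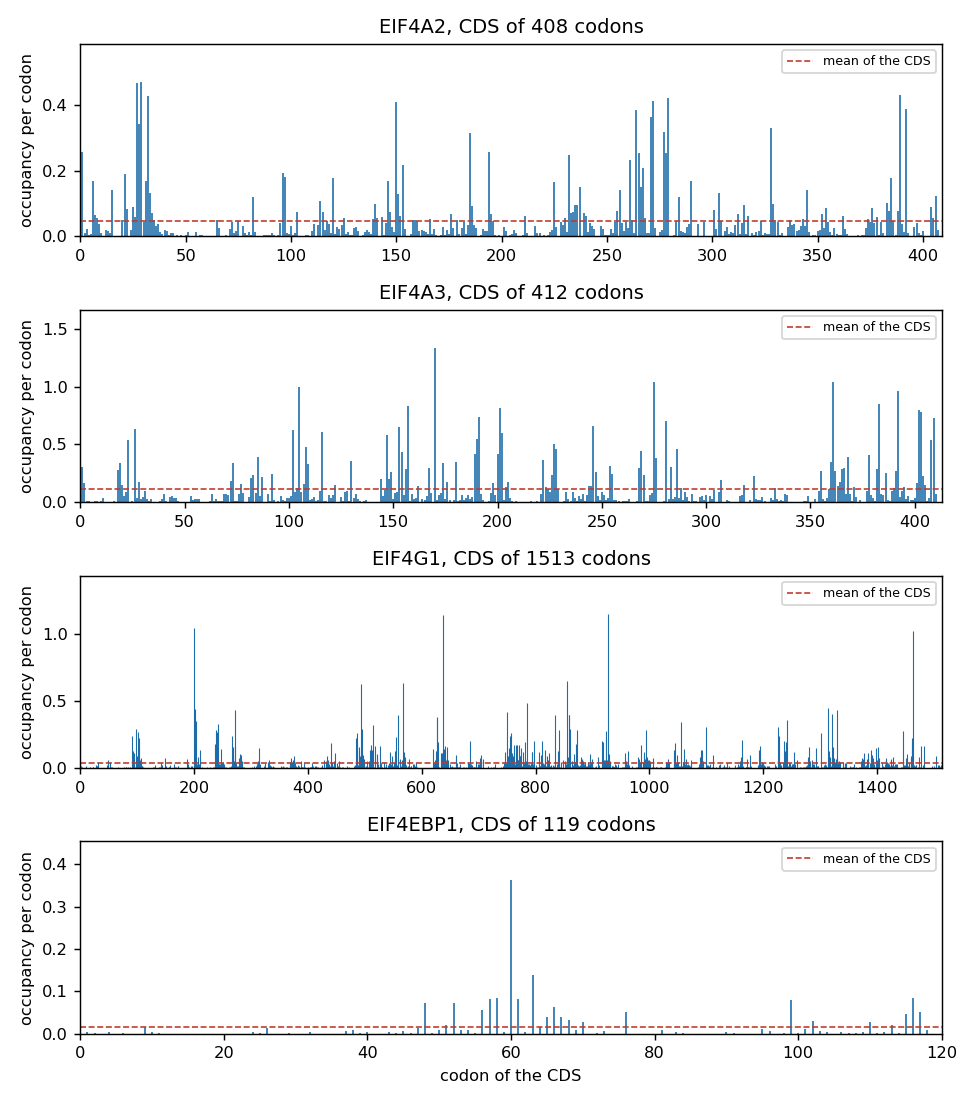
In-frame occupancy per codon (RPFs normalized by the authors for library size and mRNA abundance, linear axis) along the CDS of 4 eIF4F genes, with a dashed line at the mean of each CDS. EIF4EBP1 has 1 dominant codon, 60, at 0.363, and EIF4G1 has 4 codons above 1.0 spread from codon 200 to codon 1463.

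The codons of highest occupancy are shown with 12 bases on each side and the codon itself in capitals, so that the sequence under the ribosome can be read.
EIF4A2 codon 29: gagagcaactggAATgagattgttgat
EIF4A3 codon 170: cgtgtttttgatATGattcgtcgcaga
EIF4G1 codon 928: atggaagaacatCGAgagcacatcaaa
EIF4G1 codon 638: atgaccgaagatATAaaactgaacaaa
These lie at chr3:186502362-186502364 (exon 3), chr17:78113545-78113547 (exon 6), chr3:184043349-184043351 (exon 17) and chr3:184041280-184041282 (exon 12) of GRCh37. A codon's position follows from the offset the authors used for the footprint.

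EIF4A2 had peaks of footprints at both ends and in the middle of the CDS. Its start codon held 68, 57 and 55 reads in the 3 series, 5.61 times the mean of the CDS, at the 88.0 percentile of all transcripts. Codon 29 was the highest, with 157, 116 and 74 reads, and codons 24 to 34, a stretch chosen after the values were seen, held 12.3% ± 0.380 of the CDS occupancy (SD, n = 3). The first 75 codons had 1.30 ± 0.0255 times the occupancy of the last 75 (SD, n = 3), at the 63.2 percentile of transcripts long enough. Over longer windows the order was the other way, since the opening 136 codons held 29.7% ± 0.176 of the occupancy and the closing 136 held 31.7% ± 1.59 (SD, n = 3). Codons 247 to 287 had the highest mean of 10 equal stretches of the CDS, 0.0946, against 0.0879 for codons 1 to 41 and 0.0114 for codons 42 to 82.

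EIF4A3 had more footprints towards the end of the CDS. The last 75 codons had 2.63 ± 0.238 times the occupancy of the first 75 (SD, n = 3), and the ratio of first to last was at the 16.1 percentile of all transcripts. The first 137 codons held 24.9% ± 0.609 of the occupancy and the last 137 held 34.2% ± 1.03 (SD, n = 3). Codon 170 was highest, with 278, 226 and 189 reads and 12.1 times the CDS mean. The start codon of EIF4A3 held 2.79 times the mean, at the 79.0 percentile.

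Aligned codon by codon, the profiles of EIF4A2 and EIF4A3 had few of their 20 highest codons in common and differed in some stretches. Of the 30-base stretches of the CDS, 28.4% in EIF4A2 and 0% in EIF4A3 occur in transcripts of other genes. Reads may thus be lost or added in parts of the EIF4A2 profile only, and the share of this in the differences was not tested. Over 275 aligned codons with the same residue, the Pearson coefficient of log2 occupancy was 0.26, and over the 131 aligned codons with different residues it was 0.00, both as descriptions across codons of 2 mRNAs. The stretch at codons 24 to 34 of EIF4A2 was 4.56 times the CDS mean, while the aligned codons 29 to 39 of EIF4A3 were at 0.219 times its mean. Within this stretch the 2 proteins have the same residue only at codon 26 of EIF4A2. EIF4A3 codon 170, at 12.1 times the mean, aligned with EIF4A2 codon 166 at 1.18 times. Both places were picked for high values in 1 mRNA, so a lower level in the other says little about how far the profiles differ.

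Of 4 helicase motifs compared, 1 had overlapping levels in the 2 mRNAs. The DEAD box, which binds ATP and gives the protein family its name, was at 2.45 times the CDS mean in EIF4A2 (codons 183 to 186) and 2.37 times in EIF4A3 (codons 187 to 190). The read series gave 2.47 ± 0.635 and 2.36 ± 0.316 (SD, n = 3), which overlapped. The arginine-rich motif near the end of the helicase core was at 0.279 ± 0.0474 in EIF4A2 (codons 359 to 366) and 1.61 ± 0.300 in EIF4A3 (codons 363 to 370), with no overlap between the series. The ATP-binding Walker A motif was also lower in EIF4A2 (0.654 ± 0.242 against 1.20 ± 0.172), while the SAT motif was higher in EIF4A2 (0.227 ± 0.0915 against 0.0313 ± 0.0351, from 24 and 6 reads), both without overlap (SD, n = 3). Of the 20 highest codons of each mRNA, 2 fell on aligned positions, codons 271 and 277 of EIF4A2 with 275 and 281 of EIF4A3. This count asks for a rank among the 20 highest in both, and other high codons of EIF4A2 varied in EIF4A3. EIF4A2 codon 272 (0.412) aligned with 0.381 in EIF4A3, and codon 389 (0.429) with 0.0459, where the EIF4A3 mean was 0.110. Among 406 aligned codons some matches can arise with no relation between the profiles, and their number was not computed.

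**Figure D4:**
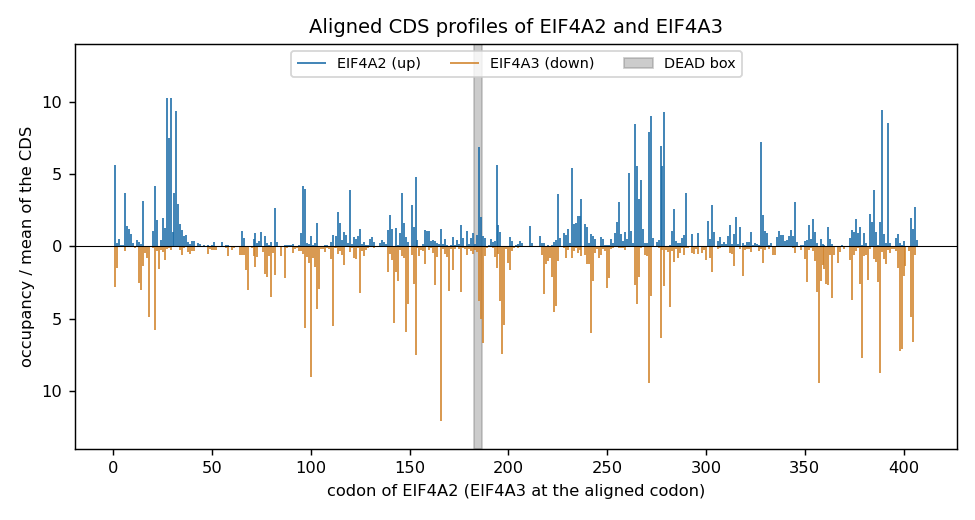
Occupancy per codon divided by the mean of the CDS, for EIF4A2 (upward) and EIF4A3 (downward) at aligned codons, with codons of EIF4A2 on the horizontal axis and the DEAD box shaded. Both are high at codons 271 and 277 of EIF4A2, while codons 24 to 34 are at 4.56 times the mean in EIF4A2 and at 0.219 times at the aligned codons of EIF4A3. That stretch was chosen after the EIF4A2 values were seen, and most of its residues differ between the proteins.

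EIF4EBP1 had most of its footprints in the middle of a short CDS. Codon 60 alone held 227, 183 and 113 reads in the 3 series, 19.8% ± 1.98 of the CDS occupancy (SD, n = 3), and this share was at the 97.2 percentile of all transcripts. Codons 46 to 63, chosen after the values were seen, held 56.1% ± 2.99. Codons 54 to 60 encode the motif by which 4E-binding proteins and eIF4G hold eIF4E, and they were at 5.57 ± 0.251 times the CDS mean with 32.6% of the occupancy. Most of this was codon 60, and without it the 6 codons before were at 2.57 ± 0.267 times the mean (SD, n = 3). In EIF4G1 the codons of the same motif, 525 to 531, were at 0.954 ± 0.259 times the mean (SD, n = 3). The start codon of EIF4EBP1 held 5 reads, 0.219 times its CDS mean, which was at the 47.9 percentile of all transcripts.

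EIF4G1 had few footprints at its annotated start. Codon 1 held 0 of 87379 in-frame reads of the mRNA, which allows a share of up to 0.00343%, from counting error only. A start codon at 0 was common in the table, in 40.3% of 9566 transcripts. The first 75 codons had an occupancy of 0.00489 against 0.0431 in the last 75, so that the last were 8.89 ± 1.02 times the first (SD, n = 3). This ratio of first to last was at the 3.79 percentile of all transcripts. The EIF4G1 gene is known to give isoforms that begin at different AUG codons.

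The in-frame AUG codons 78 and 110 of the EIF4G1 CDS, chosen after the profile was seen, and an AUG upstream of the CDS are shown in capitals as landmarks for the profile.
EIF4G1 codon 78: ccagttttgATGaac
EIF4G1 codon 110: gaggagatcATGtct
EIF4G1 upstream AUG: gagccggaaATGgtt
Codons 1 to 77 were at 0.132 ± 0.0102 times the CDS mean, and codons 78 to 109 at 1.53 ± 0.0727 times (SD, n = 3). The 593 reads of the first stretch and the 2782 of the shorter second one kept this order in all 3 series. Within the second stretch the rise came after the AUG, since codons 78 to 89 were at 0.0751 ± 0.0410 times the mean and codons 90 to 109 at 2.40 ± 0.139 (SD, n = 3). Codons 110 to 202 lay between the first and the second stretch, at 0.647 ± 0.0232. The 3 AUGs lie at chr3:184037545-184037547 (exon 4), chr3:184038469-184038471 (exon 5) and chr3:184032398-184032400 (exon 1), on the plus strand of GRCh37.

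The 5′UTR of EIF4G1 was occupied in 2 places. Its mean occupancy was 9.82% ± 0.638 of that of the CDS (SD, n = 3), at the 71.6 percentile of all transcripts, for which the median was 2.86%. The upstream AUG shown above opens an open reading frame of 20 codons, in another frame than the CDS, that ends before the start codon. The 22 CDS-frame codons that it spans, -60 to -39, held 123, 89 and 66 reads and 52.6% of the 5′UTR occupancy. Only reads in the CDS frame are counted here, so reads in the frame of the upstream open reading frame are left out. Whether it is translated was not tested. The second highest codon of the 5′UTR, -59, lay next to that AUG with an occupancy of 0.0836, and the highest, -3, had 0.0857. 

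The rest lay close to the start codon. The last 38 codons of the 5′UTR, which GENCODE annotates as coding in longer EIF4G1 transcripts in the same frame, held 46.6% of the 5′UTR occupancy with 242 reads. A second upstream AUG, 26 bases before the start codon, opens a frame of 8 codons that runs into the CDS, and the 9 CDS-frame codons from there to the start, -9 to -1, held 42.2% with 216 reads. Reads in the frame of this AUG are not counted either. Footprints on a longer mRNA, on this frame and on the shorter mRNA cannot be told apart there. The transcript was matched by CDS length, and the 5′UTR in the table has 94 codons against 82 in GENCODE, so upstream positions assume that both are the same up to the start codon. Sequencing reads from total RNA per exon were not analysed here.

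**Figure D5:**
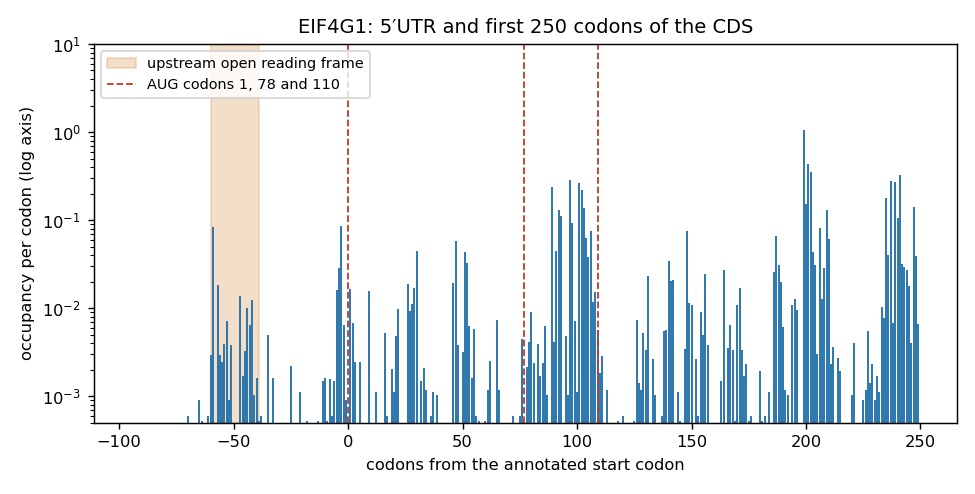
Occupancy per codon (log axis, values of 0 not drawn) in the 5′UTR and the first 250 codons of EIF4G1, by codons from the annotated start. The shaded stretch is the upstream open reading frame, whose own frame is not counted, and dashed lines mark AUG codons 1, 78 and 110. CDS-frame occupancy is seen on the stretch that the upstream open reading frame spans, just before the start codon and from about codon 90, while codons 1 to 77 average 0.132 times the CDS mean.

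The other 5′UTRs held fewer reads than that of EIF4G1. EIF4A2 had 0 in-frame reads in its 9 codons of 5′UTR. With the authors' footprint offset, the codons farthest from the start codon could hold no read, because a footprint there would begin before the mRNA. For the codons nearer the start, the count allows up to 0.0218% of the reads on the mRNA, from counting error only. EIF4A3 had a 5′UTR occupancy of 2.32% ± 0.676 of its CDS (SD, n = 3), and 82.0% ± 5.15 of that lay in the 7 codons before the start, a stretch chosen after the values were seen, with the highest at codon -3 (0.0390). EIF4EBP1 had 4.78% ± 5.00 (SD, n = 3) from 17 reads, with the highest at codon -6 (0.00572), and its read series ranged from 0.581% to 10.3%. Among all transcripts EIF4EBP1 was at the 56.9 percentile and EIF4A3 at the 47.0, both near the middle. No upstream AUG was found in the GENCODE 5′UTRs of EIF4A2, EIF4A3 and EIF4EBP1, which for EIF4A3 (55 codons against 70 in the table) and EIF4EBP1 (13 against 20) cover only part of the measured 5′UTR.

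The 3′UTRs were nearly free of in-frame footprints. They held 11 reads in EIF4A2, 1 in EIF4A3, 2 in EIF4G1 and 3 in EIF4EBP1. The mean 3′UTR occupancy was 0.170% of the CDS in EIF4A2 and less in the other mRNAs. Low values were the rule, with a median of 0.0178% over all transcripts. EIF4A2 stood at the 77.4 percentile, EIF4EBP1 at the 67.9, EIF4A3 at the 53.5 and EIF4G1 at the 50.0.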

How the data were processed

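RPF and total RNA libraries came from the same lysate of HEK293 cells, 3 of each. According to the study's methods, the authors trimmed adapters, removed PCR duplicates and used bowtie to place RPFs on hg19 transcripts. They placed total RNA reads with Hisat2 and counted them with HTseq-count. The submitters' processing notes name Cutadapt 1.16, Bowtie 1.1.2, TopHat2 2.1.1 and HTSeq 0.9.1. Hisat2 is not among these, so which aligner total RNA had is not settled here. The deposited translational efficiency is a ratio on a linear scale, 1 value per replicate (RPFs against total RNA), whose calculation the methods read here do not state. The deposited occupancy lists hold RPF counts that the authors scaled to library size and then to the TPM of the transcript, in the frame of the CDS, with replicates combined. Library totals are not in these files, so depth is given by the reads recovered.

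Each gene's log2(efficiency + 0.01) was tested against the median of all values with limma 3.58.1 in R 4.3.3, with Benjamini-Hochberg adjustment over 8121 genes at an FDR of 0.05 and no filter. Differences are on that scale and slightly understate those of low genes. The test was checked on simulated data. Pairs of genes were compared by an exact permutation test of the differences within replicates. The ratio pairs RPF and total RNA of a number, so no further pairing was needed in the fit. Nothing in the labels says that the replicates are separate cultures, so p-values measure only the spread between these samples.

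Reads were recovered from occupancy with a relative tolerance of 1e-12, a step also tested on simulated data. Intervals from reads cover counting error only. Lists of 31 transcripts were broken over lines and rejoined. Transcripts were matched to GENCODE by symbol and CDS length. Proteins deduced from these CDSs were aligned with BLOSUM62 (gap costs 11 and 1) in Biopython 1.88. The genes, the list of 35 partner genes and the tests were chosen with earlier results of these data known. All listed genes are named, and of each partner group the passing genes with the highest and lowest efficiency. The highest CDS codon and 5′UTR codon of each mRNA are given, and further codons were chosen after their values were seen.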

Additional observations from a re-analysis of the deposited data

How the results depend on the processing

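The 9 levels relative to the median gene kept their direction and their side of the threshold in 76 of 76 alternatives, and the 5 pairs kept their direction in 25 of 25. For the pairs, 15 of these leave out a replicate and have no test, and in the other 10 the test cannot pass 0.05. With a replicate block, in which each replicate's own median was removed, 3639 genes were above and 3626 below the median, with 6 and 3 of the eIF4F genes, and it changed no call of these genes. Unpaired exact tests of the pairs gave p = 0.1, the smallest that 3 against 3 values allow. With only genes in both tables, 2 eIF4F genes were above the median, because 4 of the 9 are in both. Without 1 replicate, 3528 to 3552 genes were above and 3470 to 3539 below.

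Occupancy depended on how codons were summarized. As a median over codons it was 0.0153 in EIF4A2, 0.0311 in EIF4A3, 0.00747 in EIF4G1 and 0.00257 in EIF4EBP1, and without the highest codon 0.107 in EIF4A3 and 0.0125 in EIF4EBP1. The ratio of first to last codons in EIF4A2 was 1.63 with windows of 50 codons, 1.33 without the 5 codons at each end and 1.34 without the highest codons. In EIF4G1 it was 0.289 with windows of 50 codons and 0.139 without the highest codons. The 5′UTR of EIF4G1 was at 6.12% of the CDS without the 5 codons next to it and 7.39% without its highest codon, and that of EIF4A3 at 0.752% without the 5 codons. The coefficient of the aligned profiles was 0.19 over all 406 aligned codons.

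EIF4A1 had no profile to align, the pairs with EIF4G2 could not be computed, and first and last windows of 75 codons overlap in EIF4EBP1. The 5′UTR of EIF4A2, with no reads, has no alternatives. Profiles rest on replicates that were inferred and not labelled. They also come from cells treated with cycloheximide before lysis, and the part of this treatment in the profiles was not tested.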
